A study of Mus musculus with 39 samples.

Results

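The 9 genes described here make, load or switch on major histocompatibility complex (MHC) class I, the molecule that shows peptides from inside a cell to CD8 T cells and natural killer cells. They were matched by symbol from a list that was chosen with earlier results of these data known. They are 9 of the 43430 genes in the counts table. The heavy chains are H2-K1, H2-D1, H2-T23 and H2-M2, and the light chain is B2m. Tap1 and Tap2 are the peptide transporter subunits, Tapbp is the loading bridge and Nlrc5 is the transactivator. All 9 had a row. Each was counted in all 39 libraries except H2-M2, which had reads in every macrophage library and in 1 monocyte library.

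Gene expression was measured by RNA sequencing of lung cells sorted from C57BL/6J mice, in 39 libraries and 8 groups. The 20 monocyte libraries are labelled as sorted lung monocytes of naive mice, and the 19 macrophage libraries as Siglec F-low alveolar macrophages of mice treated with bleomycin, an agent used to provoke lung injury and scarring. The series text calls the macrophages monocyte-derived. In each cell type there were young saline, young ISRIB, old saline and old ISRIB mice, with 5 libraries a group except young ISRIB macrophages with 4. ISRIB is a small molecule that acts on the translation factor eIF2B and blocks the integrated stress response. Ages were 8 to 12 weeks and over 18 months in the sample labels, and 3 to 5 and 18 to 24 months in the series text. According to the series text, ISRIB or vehicle was injected into the abdominal cavity every day from day 7, and cells were taken on day 21 after bleomycin; no separate schedule for the naive mice is given in the sources used here. No transgene or deletion is labelled in any group. Every macrophage library came from a bleomycin-treated mouse and every monocyte library from a naive one, so cell type and bleomycin cannot be told apart. These are bulk libraries of sorted cells, in which fewer cells of a type and less RNA per cell cannot be told apart.

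A class I molecule is a polymorphic heavy chain, such as H2-K1 or H2-D1, folded with B2m around a short peptide. Peptides are cut from proteins by the proteasome, in immune cells by a variant called the immunoproteasome, and are pumped into the endoplasmic reticulum by the Tap1-Tap2 transporter, where Tapbp (tapasin) holds the empty molecule beside the pump. H2-T23 encodes Qa-1, a less variable heavy chain seen by CD94/NKG2 receptors, and H2-M2 is a further nonclassical heavy chain. Nlrc5 is recruited to class I promoters by the RFX, CREB/ATF and NF-Y factors, and interferons raise most of these genes. In the lung, alveolar macrophages and monocytes both carry class I, as nearly all nucleated cells do.

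The sequences shared by the members' promoters are shown first, because the promoters of H2-K1, H2-D1 and B2m carry one arrangement of motifs that the other 4 member promoters in the table lack. Sequences are from RefSeq on build GRCm38.p6, 250 bases before the annotated start, 5′ to 3′ on the gene's strand. Capitals mark matches on either strand to CCAAT (or ATTGG), the box bound by NF-Y; TGACG (or CGTCA), the core of the CREB/ATF site; GAANNGAAA (or TTTCNNTTC), an interferon response core; and a palindromic kappa B site, the run of capitals that starts GGGGATT and ends CCCC. No match overlaps another in these sequences. The H2-K1 window lies at chr17:34000348-34000597 on the minus strand, that of H2-D1 at chr17:35262844-35263093 on the plus strand, that of B2m at chr2:122147437-122147686 on the plus strand, that of H2-M2 at chr17:37483555-37483804 on the minus strand and that of Tap1 at chr17:34187306-34187555 on the plus strand.

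H2-K1: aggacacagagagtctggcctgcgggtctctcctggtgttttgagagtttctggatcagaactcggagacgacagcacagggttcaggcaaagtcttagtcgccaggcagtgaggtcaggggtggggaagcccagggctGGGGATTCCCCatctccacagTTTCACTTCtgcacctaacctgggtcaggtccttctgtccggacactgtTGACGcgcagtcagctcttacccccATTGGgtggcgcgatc
H2-D1: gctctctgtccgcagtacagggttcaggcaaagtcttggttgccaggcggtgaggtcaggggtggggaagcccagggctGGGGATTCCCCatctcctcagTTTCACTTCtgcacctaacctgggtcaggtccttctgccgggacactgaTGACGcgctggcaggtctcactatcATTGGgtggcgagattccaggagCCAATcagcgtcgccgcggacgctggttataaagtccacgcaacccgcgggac
B2m: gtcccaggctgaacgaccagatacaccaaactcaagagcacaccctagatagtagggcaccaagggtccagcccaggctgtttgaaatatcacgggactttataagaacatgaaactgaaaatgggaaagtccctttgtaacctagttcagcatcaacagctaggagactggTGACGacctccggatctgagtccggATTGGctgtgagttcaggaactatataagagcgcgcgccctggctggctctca
H2-M2: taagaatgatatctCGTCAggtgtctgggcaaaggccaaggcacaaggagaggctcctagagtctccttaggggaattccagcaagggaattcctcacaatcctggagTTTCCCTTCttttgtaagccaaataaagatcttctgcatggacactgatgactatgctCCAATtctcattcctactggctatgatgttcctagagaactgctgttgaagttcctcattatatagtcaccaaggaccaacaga
Tap1: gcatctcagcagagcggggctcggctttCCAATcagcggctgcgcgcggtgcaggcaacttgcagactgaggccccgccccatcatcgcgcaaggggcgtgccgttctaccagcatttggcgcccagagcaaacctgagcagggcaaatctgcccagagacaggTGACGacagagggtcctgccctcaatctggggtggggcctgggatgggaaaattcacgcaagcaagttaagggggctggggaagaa

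In H2-K1, H2-D1 and B2m, TGACG was followed by ATTGG with 20 bases between them. H2-K1 has another annotated start, with its window at chr17:34000334-34000583. That window holds the same pair and also a CCAAT box, which lies past the start used for the sequence above. This pair, with 15 to 35 bases between, was found in 3 of the 7 members with a promoter in the table and in 225 of all 32851 promoters of the same 300-base length (0.685%). H2-T23, H2-M2, Tap1 and Tapbp have no such pair in the window searched, 250 bases before to 50 after the start. Outside the members, the promoters of the heavy chains H2-M3 and H2-Q7 also hold it, with 20 and 19 bases between. The promoters of Psmb9, Psmb8 and Irf1, which were searched as well, lack it. The single motifs are common: CCAAT was in 37.4% of all promoters, TGACG in 20.8% and GAANNGAAA in 7.52%. The palindromic kappa B site was in 10 promoters (0.0304%), those of H2-K1 and H2-D1 among them. Among the members, GAANNGAAA was in the promoters of H2-K1, H2-D1 and H2-M2. This pattern finds only the spacing seen in H2-K1. The B2m window holds gaaactgaaa, a like run with wider spacing, which is not matched and stays in lower case. A promoter without a match is therefore not shown to lack an interferon response site. The motif letters were chosen after the H2-K1 promoter had been read, and a match is a description of letters, not of a bound site. Tap2 and Nlrc5 are named only.

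The libraries held 4595331 to 16056708 counts (median 8628240), and the 9 members took 0.483% to 1.07% of a library. The labelled cell types were checked against marker lists, each tested gene by gene with edgeR's quasi-likelihood test. Between saline macrophages and saline monocytes, averaged over both ages, 35.8% of all genes were called higher and 34.1% lower. All 10 alveolar macrophage markers were higher in macrophages, with a summed level of 8286 to 18450 CPM against 724 to 2188 in monocytes. CPM give a gene's reads as a share of the library total. That total is scaled for levels of single genes in single libraries, and is not scaled for sums over marker lists. Of 6 classical monocyte markers, 5 were lower in macrophages (Ly6c2 and Ccr2 among them) and Chil3 was higher. Of 8 markers of monocyte-derived macrophages, 6 were higher, C1qa and Spp1 among them, and 2 were lower, Cx3cr1 among them. Markers of lymphocytes differed with age in macrophages, and their values stand beside the results they move with.

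Levels were compared between genes as CPM per kilobase of merged exon. B2m led in every group, followed by H2-D1 and H2-K1, and the libraries of these 3 did not overlap each other within any group. In old saline monocytes the mean levels per kilobase were 2154 for B2m, 847 for H2-D1 and 423 for H2-K1, and in old saline macrophages they were 3344, 1230 and 698. Tapbp (125 and 139) and H2-T23 (105 and 87.7) came next in both cell types, and their libraries overlapped in young saline and old ISRIB monocytes.

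Below these, the order differed between the cell types. In monocytes Tap1 stood above Tap2, Tap2 above Nlrc5, and H2-M2 last: in the old saline group the mean levels per kilobase were 46.5, 30.9, 19.2 and 0.0120. Neighbouring libraries overlapped only in old ISRIB monocytes, for Tap1 with Tap2 and for Tap2 with Nlrc5. In macrophages H2-M2 came sixth and Nlrc5 last: in the young saline group the levels per kilobase were 33.8 for H2-M2, 21.1 for Tap2, 16.4 for Tap1 and 6.20 for Nlrc5. Tap2 and Tap1 overlapped in old saline macrophages, and H2-M2 overlapped H2-T23 in every macrophage group but young saline, and Tap2 in both ISRIB groups. With the longest annotated transcript in place of merged exons, 70 of 72 ranks were the same, the exception being Tap1 and Tap2 in old saline macrophages.

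**Figure D1:**
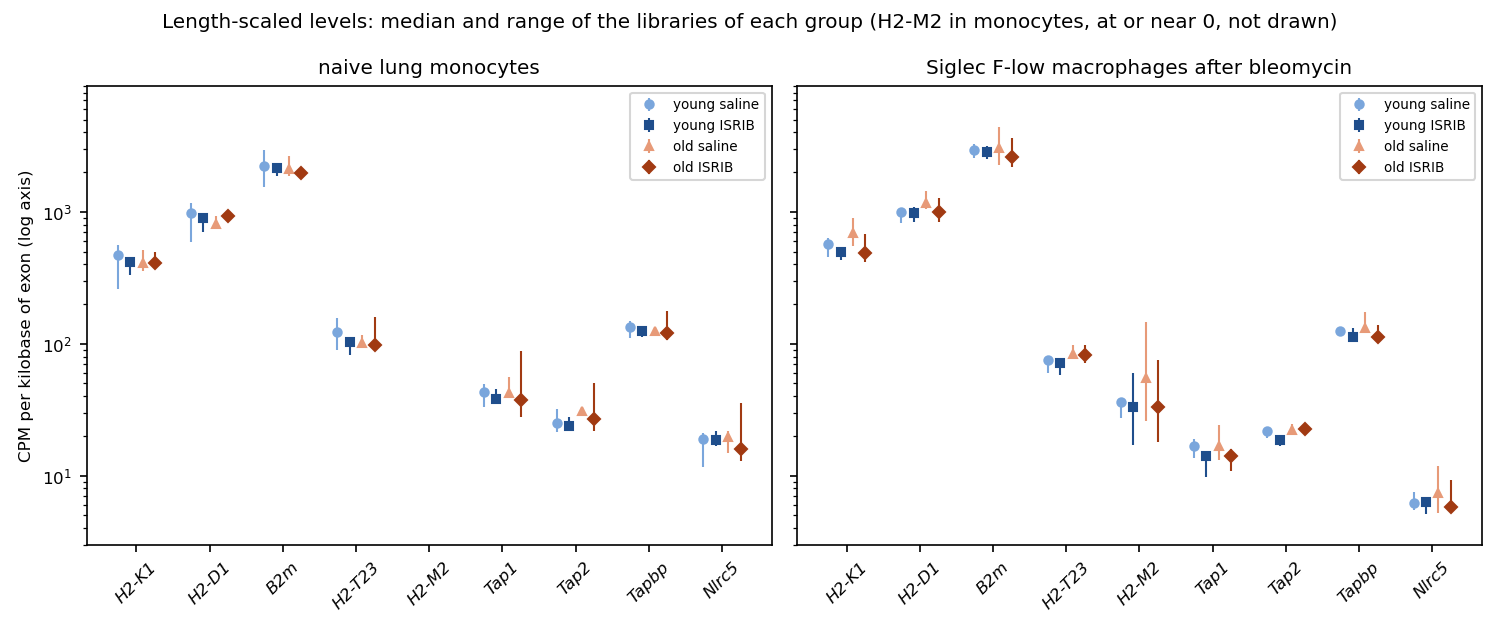
Level of each member in CPM per kilobase of merged exon (log axis) in the 8 groups: the median of 4 or 5 libraries, with bars from the lowest to the highest. B2m is highest in all groups, Nlrc5 is the lowest of the drawn genes in macrophages, and H2-M2 is not drawn in monocytes, where it was at or near 0.

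The largest contrast of the design is between bleomycin macrophages and naive monocytes, and the class I genes split in it. In saline mice, averaged over both ages, the transactivator Nlrc5 and the transporter subunit Tap1 were 2.59-fold and 2.55-fold lower in macrophages, and H2-T23 and Tap2 were lower by less. The classical heavy chains H2-K1 and H2-D1 and the light chain B2m were 1.21-fold to 1.44-fold higher, and H2-M2 was at or near 0 in monocytes. Tapbp did not pass the test. H2-M2 passed the count filter through macrophages alone, which fixed its call, so it is left out of the counts for this contrast. Of the other 8 members, 7 were called by edgeR's quasi-likelihood test at an adjusted p under 0.05, 3 higher and 4 lower, where 69.8% of all 13587 genes were called, 35.8% higher and 34.1% lower. The median log2 difference of the 8 was -0.19, against -0.00 over all genes. Each of the 7 calls held in all 8 alternative settings and when any of the 20 libraries was left out.

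Nlrc5 (ENSMUSG00000074151, chr8:94434356-94527272, plus strand, GRCm38) is the class I transactivator. In young saline monocytes its level was 179, 179, 162, 121 and 98.7 CPM, and in young saline macrophages 52.5, 46.4, 53.7, 47.1 and 63.6 CPM. In old saline monocytes it was 166, 174, 127, 184 and 165 CPM, and in old saline macrophages 99.8, 58.2, 44, 77.6 and 63.1 CPM. The groups did not overlap at either age, although the highest old macrophage library, at 99.8 CPM, exceeded the lowest young monocyte library, at 98.7 CPM. The averaged log2 difference was -1.37 (SE 0.15, edgeR adjusted p 6.31e-10), with -1.49 in young and -1.25 in old mice (adjusted p 3.09e-07 and 5.65e-06).

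Tap1 (ENSMUSG00000037321, chr17:34187553-34197225, plus strand), which with Tap2 forms the peptide pump, followed the same direction. Its level was 250.2, 207, 236, 273 and 182 CPM in young saline monocytes and 104, 84.1, 95.4, 75 and 91.3 CPM in young saline macrophages. In old saline mice it was 307, 231, 227, 224 and 284 CPM in monocytes and 134, 92, 76.2, 127 and 72.5 CPM in macrophages. No library of the 19 macrophage libraries, at 53.7 to 134 CPM, reached the lowest of the 20 monocyte libraries, at 151 CPM; among all genes tested, 9.40% were lower in this way. The averaged log2 difference was -1.35 (SE 0.15, edgeR adjusted p 8.31e-10), and it was -1.35 at each age. Tap2 (ENSMUSG00000024339, chr17:34203527-34216321, plus strand) differed by less, with 81.6 to 190.2 CPM in monocytes, median 102, and 63.7 to 93.9 CPM in macrophages, median 81.8. Its averaged log2 difference was -0.40 (SE 0.10, edgeR adjusted p 0.00031). In young mice alone it was -0.34 with an adjusted p of 0.0298, and this call was lost when young saline monocyte library 1 or 4 or young saline macrophage library 1 or 3 was left out (adjusted p 0.0647 to 0.109), and when the fit held only the groups compared (-0.31, adjusted p 0.0602).

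H2-T23 (ENSMUSG00000067212, chr17:36029773-36032855, minus strand), the Qa-1 heavy chain, was also lower in macrophages. In young saline mice its level was 386, 334, 355, 452 and 261 CPM in monocytes and 226, 219.5, 205, 173 and 218 CPM in macrophages. In old saline mice it was 291, 307, 291, 286 and 336 CPM in monocytes and 283, 235, 242, 272 and 235 CPM in macrophages. The libraries did not overlap at either age, but the gap was narrow in old mice. The averaged log2 difference was -0.52 (SE 0.09, edgeR adjusted p 3.03e-06), with -0.78 in young mice (adjusted p 1.57e-06) and -0.26 in old mice (adjusted p 0.086), where it did not pass. In old mice it passed when scaled by library totals alone (-0.39, adjusted p 0.0068) and when the fit held only the groups compared (adjusted p 0.0204).

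H2-M2 (ENSMUSG00000016283, chr17:37480851-37483552, minus strand) had reads in every macrophage library and passed the count filter through them alone. Over all 20 monocyte libraries it had 1 count in 173588098, in an old saline library, which is 0.00576 CPM with an exact 95% Poisson interval of 0.000146 to 0.0321. In macrophages it was at 48.7, 56.1, 57.4, 42.4 and 57.2 CPM in young saline mice and 85.7, 110.2, 40.0, 225 and 75.5 CPM in old saline mice. With ISRIB it was at 26.7, 93.2, 43.1 and 59.4 CPM in young and 51.5, 35.6, 27.8, 118 and 95.7 CPM in old mice. Every macrophage library was above every monocyte library, and the spread among macrophage libraries, 26.7 to 225 CPM, was the widest of the members as a ratio of highest to lowest. Against a floor of 3 counts over the monocyte group, H2-M2 was at least 715-fold higher in young saline macrophages, at least 746-fold higher in young ISRIB and at least 929-fold higher in old ISRIB macrophages. In old saline mice 4425 counts stood against 1, a ratio of 4360 with a 95% counting interval of 783 to 172000. Intervals and floors cover counting error only.

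H2-K1 (ENSMUSG00000061232, chr17:33996017-34000347, minus strand) encodes a classical heavy chain. Its level in young saline mice was 1375, 1308, 1452, 1635 and 760.2 CPM in monocytes and 1718, 1683, 1562, 1330 and 1849 CPM in macrophages, and these overlapped. In old saline mice it was 1517, 1042, 1094, 1199 and 1354 CPM in monocytes and 2277, 2048, 1634, 2660 and 1632 CPM in macrophages, which did not overlap. The averaged log2 difference was 0.52 (SE 0.11, edgeR adjusted p 4.87e-05), with 0.72 in old mice (adjusted p 9.67e-05) and 0.32 in young mice (adjusted p 0.0676), where it did not pass. In young mice it passed without monocyte library 4 (adjusted p 0.0253) or macrophage library 4 (0.0357), with limma voom (0.0326) and with the replicate number as a block (0.0484).

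H2-D1 (ENSMUSG00000073411, chr17:35262730-35267499, plus strand), the other classical heavy chain, was nearly level in young saline mice. There it was 2548, 2423, 2683, 3032 and 1519 CPM in monocytes and 2600, 2578, 2360, 2130 and 2668 CPM in macrophages (log2 difference 0.02, edgeR adjusted p 0.923). In old saline mice it was 2408, 1992, 2027, 2104 and 2396 CPM in monocytes and 3524, 2732, 2994, 3703 and 2904 CPM in macrophages, with no overlap and a log2 difference of 0.54 (1.45-fold, adjusted p 0.000258). The averaged difference was 0.28 (SE 0.09, adjusted p 0.00475). B2m (ENSMUSG00000060802, chr2:122147686-122153083, plus strand), the light chain shared by all class I molecules, had 1327 to 2541 CPM in monocytes, median 1814, and 1887 to 3788 CPM in macrophages, median 2551. Its averaged log2 difference was 0.51 (SE 0.10, adjusted p 2.08e-05), with 0.63 in old mice (adjusted p 0.000196) and 0.39 in young mice (adjusted p 0.017). The B2m call in young mice was lost without young saline monocyte library 5 (adjusted p 0.0783), the library lowest of its group for all 8 members with reads.

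Tapbp (ENSMUSG00000024308, chr17:33915899-33929292, plus strand), the loading bridge, had 385 to 646 CPM in monocytes and 376 to 635 CPM in macrophages. Its averaged log2 difference was 0.02 with a 95% interval of -0.14 to 0.17 (edgeR adjusted p 0.847). With H2-M2 left out again, 5 of 8 members were called in young saline mice, where 59.8% of all genes were, and the libraries of 3 (H2-T23, Tap1 and Nlrc5, all lower) did not overlap, as for 40.0% of all genes. In old saline mice 6 of 8 were called against 56.7% of all genes, and the libraries of 6 did not overlap against 43.1% of all genes. Whether the difference between the cell types itself differed with age was tested as an interaction, in which 0 of 9 members and 0.191% of all genes were called. By the unadjusted p, 2 members and 10.6% of all genes were under 0.05; the members were H2-D1 (interaction 0.52, edgeR adjusted p 0.216) and H2-T23 (0.52, adjusted p 0.239), and DESeq2 and limma voom each called 0 members. Without young saline monocyte library 5 the H2-D1 interaction was 0.65 with an adjusted p of 0.0355.

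**Figure D2:**
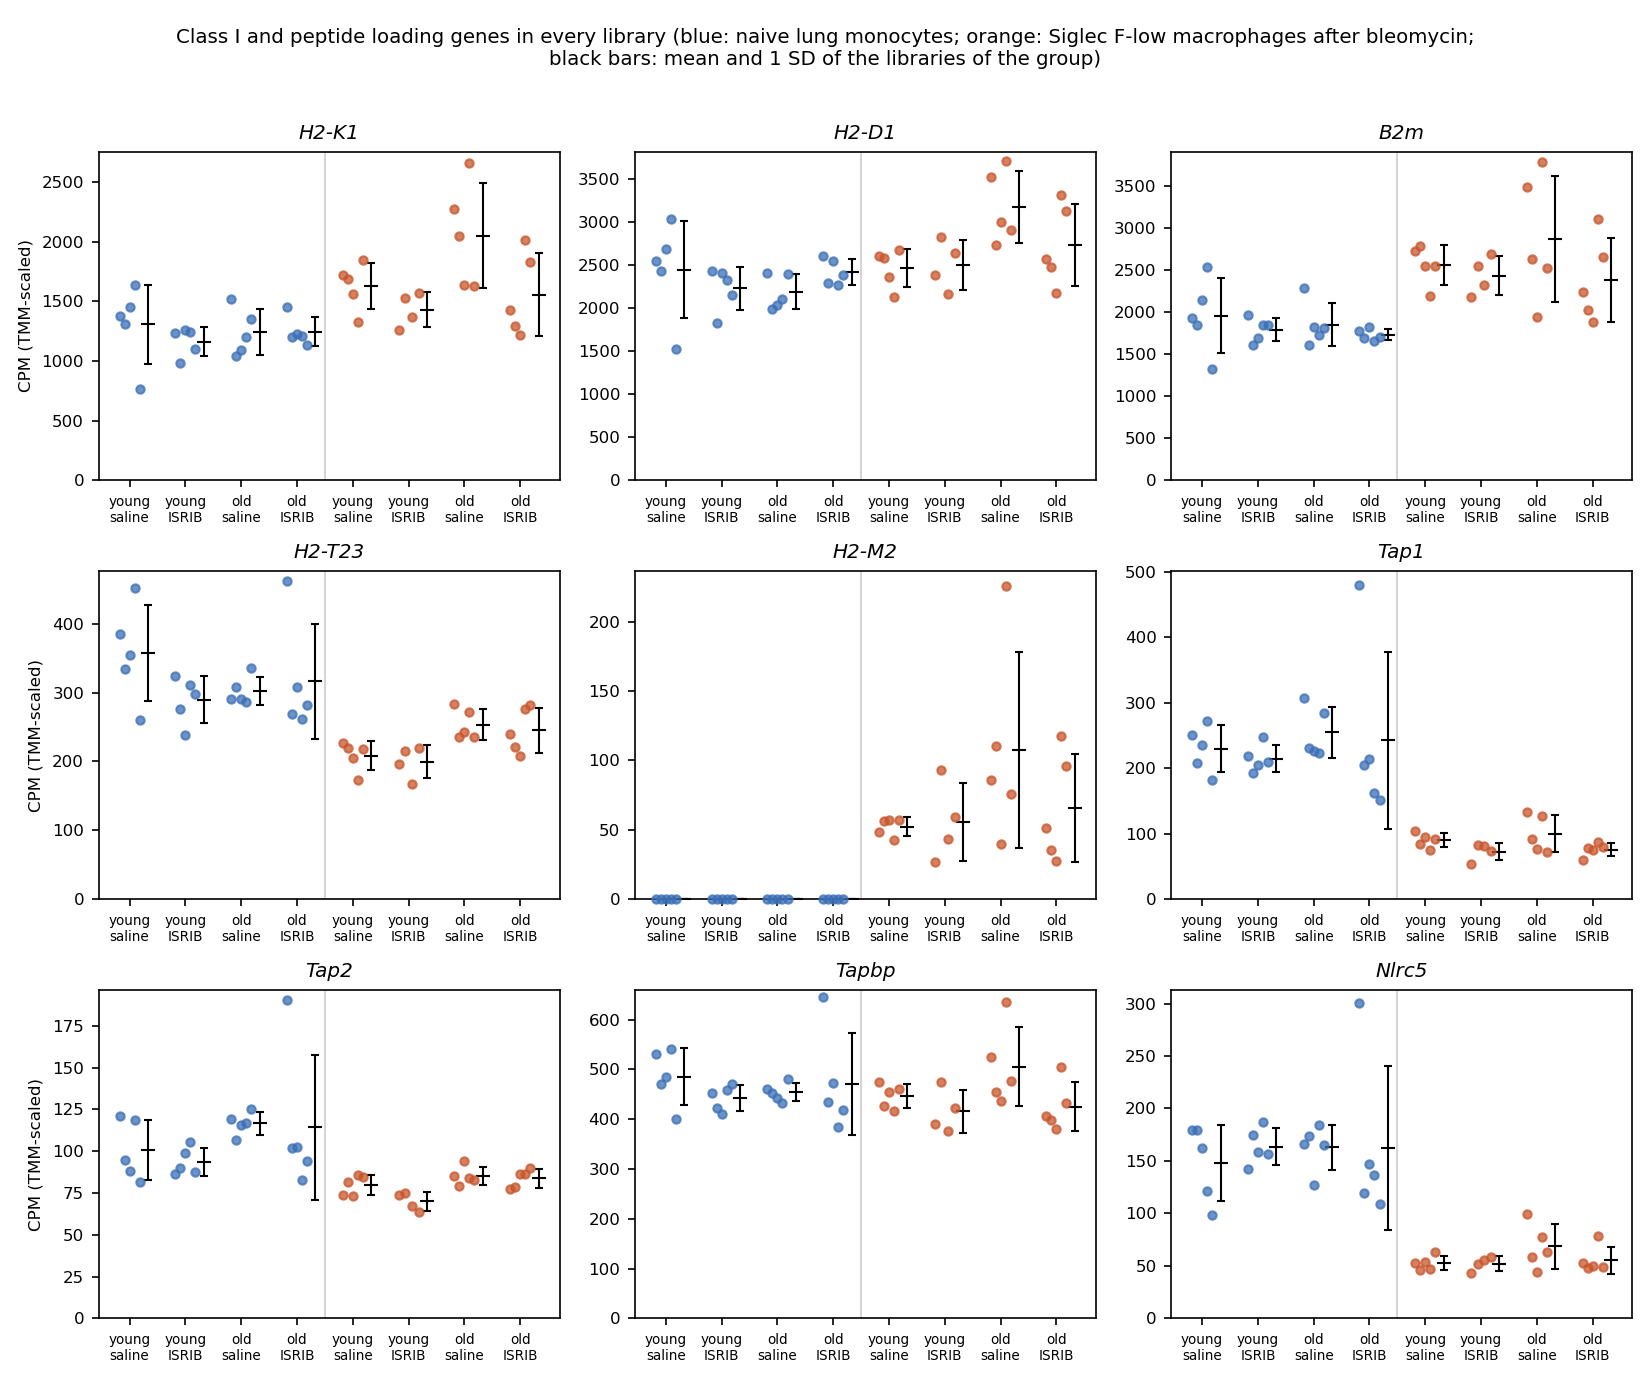
Level of each member in CPM in every library by group, 1 point per library, with the mean and 1 SD. Tap1 and Nlrc5 are lower in macrophages, H2-M2 has reads in all 19 macrophage libraries and in 1 monocyte library, and old ISRIB monocyte library 1 stands high for Tap1 at 480.0 CPM.

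Reads of the classical genes could be shared with their relatives. Of the 50-base stretches of each gene's exons, 9.63% in H2-K1, 12.8% in H2-D1, 14.5% in H2-T23, 11.6% in Tap2 and 23.2% in Tapbp also occur in another gene, against 0.338% in Nlrc5 and 0% in B2m. Tapbp overlaps Zbtb22 on the same strand, so reads from the shared bases cannot be told apart by strand. On the other strand, Tapbp overlaps Gm19412, Tap1 overlaps Psmb9, Tap2 overlaps Gm15821 and Gm20496, and Nlrc5 overlaps 9330175E14Rik. If counting ignored strand, reads in these shared bases may have been added to the members or lost from them. Which of these happened cannot be told from the sources used here.

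The rest of the pathway was followed in lists of related genes, in the same contrast of saline macrophages with saline monocytes. Of all 13587 genes tested there, 35.8% were called higher and 34.1% lower in macrophages. All 5 genes of the immunoproteasome and its activator were lower in macrophages: Psmb9 (log2 difference -0.73), Psme1 (-0.63), Psmb8 (-0.61), Psmb10 (-0.55) and Psme2 (-0.53), the catalytic subunits and the PA28 activator that shape class I peptides. Of the 5 loading and trimming genes, 4 were higher: the chaperones Calr (1.35) and Canx (0.91), the oxidoreductase Pdia3 (0.78) and the peptide-trimming enzyme Erap1 (0.35). Tapbpl, which encodes the peptide editor TAPBPR, was lower (-0.60). These counts held in all 8 alternative settings and with each of the 20 libraries left out.

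Where 34.1% of all genes were called lower and 35.8% higher, the lists of regulators and interferon genes were read next. Among 11 regulators of class I genes, 8 were lower in macrophages and 0 were higher. They were led by the interferon response factor Irf1 (-2.02), its relative Irf2 (-1.15), Creb1 (-1.10), Nfkb1 (-1.02) and Rela (-0.51), and included Rfxap, Nfyb and Nfyc. Rfx5, Rfxank and Nfya did not pass. Of 11 interferon receptor and signalling genes, 10 were lower, with Ifngr1 (-1.84), Irf9 (-1.65), Stat2 (-1.25), Ifnar1 (-1.21) and Ifnar2 (-0.996) the farthest apart; Socs1 did not pass. Of 24 interferon-stimulated genes, 20 were lower, with a median of -1.51 for the list: Mx1 (-3.36), Irf7 (-3.21), Xaf1 (-2.65) and Usp18 (-2.32) were lowest, and Iigp1 (2.50) and Cxcl9 (0.91) were higher. The count of lower interferon-stimulated genes was 19 to 21 when single libraries were left out.

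MHC class II, which shows peptides from outside the cell, went the other way from Nlrc5 and Tap1. Between the saline cell types, 35.8% of all genes were called higher in macrophages and 34.1% lower. Of 10 class II genes, 8 were higher in macrophages, among them H2-Eb1 (2.14), H2-Ab1 (1.78), H2-Aa (1.74), Cd74 (1.64) and H2-DMb1 (1.43), H2-Ob was lower (-1.02), and Ciita, the class II transactivator related to Nlrc5, did not pass (0.06, edgeR adjusted p 0.809). The H2-Oa call among the 8 held in 5 of 8 alternatives and in 10 of the 20 fits that left out 1 library. Of the other cell types' markers, the summed B cell list was 137 to 303 CPM in monocytes, 6.53 to 29 CPM in young and 21.3 to 561 CPM in old macrophages, with 0 of 7 markers at 0 in any group. The neutrophil list was 434 to 810 CPM in monocytes and 78.7 to 149 CPM in macrophages. The T and NK cell list was 7.49 to 95.9 CPM in monocytes and 1.29 to 23.6 CPM in macrophages, where Ncr1 and Ifng were at 0 in both young groups, and the dendritic cell list 31.4 to 241 CPM and 6.88 to 32.6 CPM. The part of these in the differences above was not tested.

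**Figure D3:**
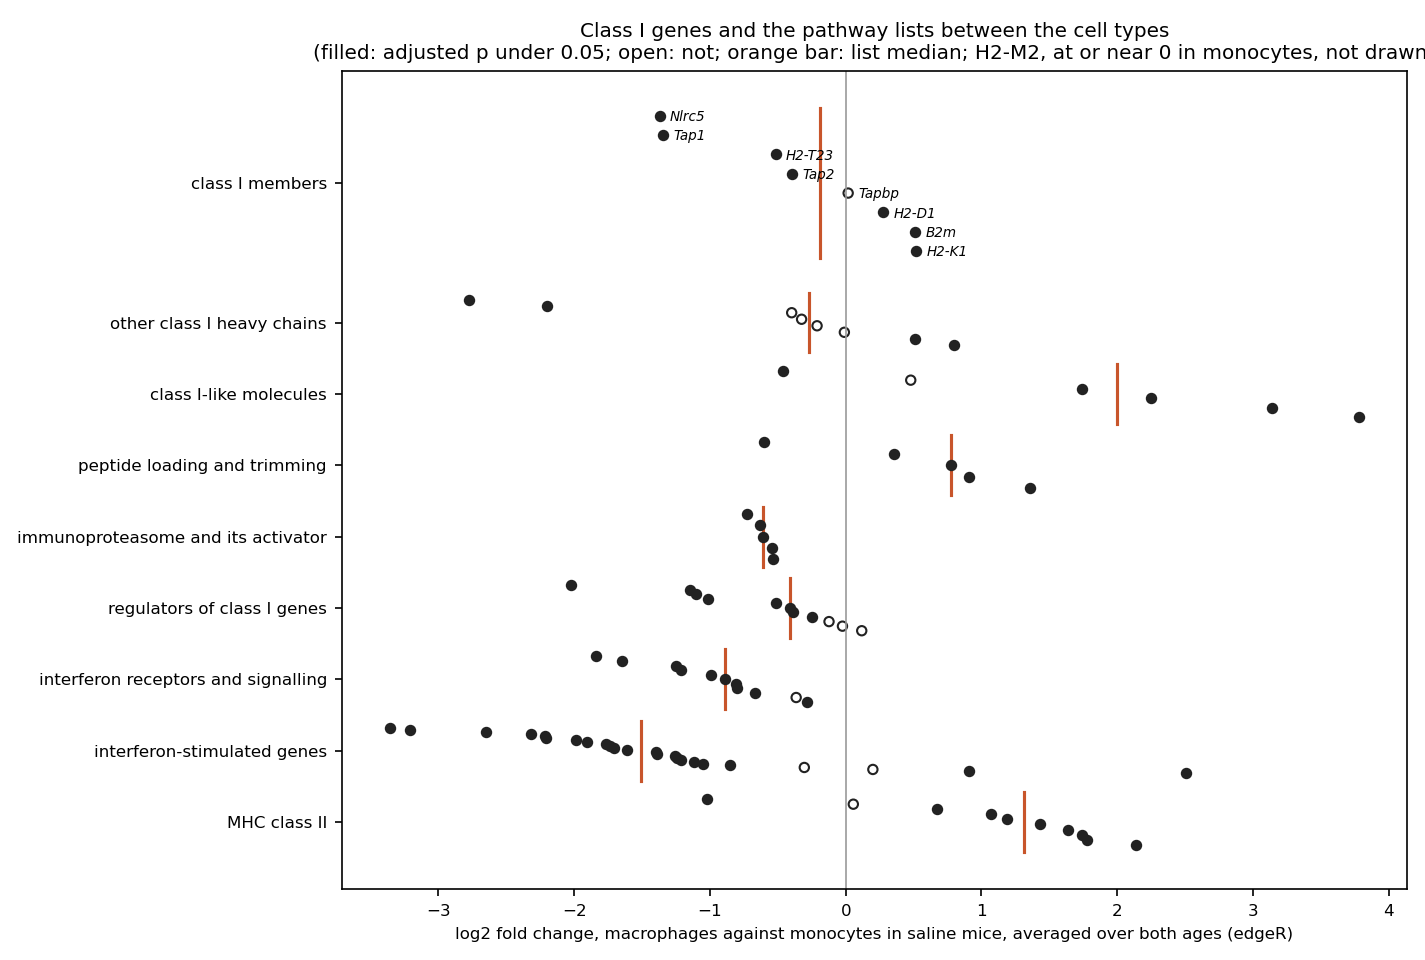
Log2 difference between saline macrophages and saline monocytes, averaged over both ages, for each gene of the class I members and the pathway lists, 1 point per gene (filled where the adjusted p is under 0.05), with a bar at the list median. Genes of the immunoproteasome, interferon signalling and interferon-stimulated lists lie mostly below 0 and class II genes above 0; for the class I members the bar leaves out H2-M2 and is at -0.19.

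Whether ISRIB altered the class I genes was tested in each cell type and at each age. In macrophages 0 members passed the test in old mice, in young mice or averaged over the ages, although most estimates were below 0. Genes measured in the same libraries can move together, as several members did. Counts of signs are therefore not counts of independent results. Averaged over the ages, all 9 log2 changes were below 0, with a median of -0.17 against -0.00 over all genes, and 0 of 9 were called where 1.16% of all genes were. By the unadjusted p, 3 members (H2-K1, Tap1 and Tapbp) and 16.2% of all genes were under 0.05, and DESeq2 and limma voom each called 0 members.

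Tap1 had the lowest adjusted p of the members. In old macrophages it was at 134, 92, 76.2, 127 and 72.5 CPM with saline and 59.3, 77.4, 75.2, 86.7 and 80.1 CPM with ISRIB, and in young macrophages at 104, 84.1, 95.4, 75 and 91.3 CPM with saline and 53.6, 82.3, 81.2 and 73.5 CPM with ISRIB. The groups overlapped at both ages. The averaged log2 change was -0.35 with a 95% interval of -0.60 to -0.11 (edgeR adjusted p 0.128). It passed with no filter on low counts (adjusted p 0.000614) and without old saline macrophage library 5 (-0.40, adjusted p 0.0421), and not in the other alternatives. H2-K1 in old macrophages was at 2277, 2048, 1634, 2660 and 1632 CPM with saline and 1425, 1290, 1221, 2012 and 1832 CPM with ISRIB, which overlapped. Its averaged change was -0.29 (95% interval -0.53 to -0.06, adjusted p 0.19), and that of Tapbp was -0.18 (-0.31 to -0.04, adjusted p 0.162).

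In old macrophages alone, 0 of 9 members and 0% of all genes were called by edgeR, with 1057 genes (8.68%) under an unadjusted p of 0.05, 49 genes called by DESeq2 and 0 by limma voom. All 9 estimates were below 0, with a median of -0.27, and 4 members were among the genes with an unadjusted p under 0.05 (H2-K1, H2-D1, Tap1 and Tapbp). In young macrophages 0 of 9 members were called against 0.0164% of all genes, 7 of 9 estimates were below 0, the median was -0.07, and Tap2 was the 1 member with an unadjusted p under 0.05, as 12.2% of all genes had. The difference between the ISRIB effects in old and young macrophages was called for 0 members and for 0% of all genes by edgeR, DESeq2 and limma voom, with 4.85% of genes and 0 members under an unadjusted p of 0.05. H2-M2 shows how wide the limits are: its ISRIB change was -0.71 in old macrophages (95% interval -1.69 to 0.28) and 0.08 in young macrophages (-0.99 to 1.15). By contrast, the interval for H2-T23 averaged over the ages ran from -0.19 to 0.08.

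The related lists were read in the same averaged contrast, where 1.16% of all genes were called in either direction. All 24 interferon-stimulated genes had estimates below 0, with a median of -0.47 (-0.00 over all genes), and 0 passed; over the alternatives 0 to 4 passed. The 5 immunoproteasome genes were also all below 0, with a median of -0.22, and 0 passed. Irf1, which binds class I promoters, fell (-0.53, edgeR adjusted p 0.0266), and this call held in 7 of 8 alternatives and in 12 of 19 fits without 1 library. Of 10 class II genes, 6 fell: H2-Eb1 (-0.85), H2-Ab1 (-0.82), H2-Aa (-0.72), Cd74 (-0.70), H2-DMb1 (-0.42) and H2-DMa (-0.32), with adjusted p of 0.0266 to 0.0493. The class II count ran from 0 to 7 when single libraries were left out and from 0 to 7 over the alternatives, so it rests on the library set and on the settings. Of 10 alveolar macrophage markers 4 rose in the same contrast, Siglecf (0.57), Mrc1 (0.35), Pparg (0.30) and Mertk (0.28), and the list median was 0.29; 0 of 8 markers of monocyte-derived macrophages passed, with a median of -0.29. The B cell list had a median change of 0.999 in this contrast and the T and NK cell list one of 0.69, with 0 genes of either passing; the part of these lists was not tested.

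In monocytes ISRIB gave 0 called members. H2-M2 was left out there by the count filter, and of the other 8 members 0 were called in old mice, in young mice, averaged over the ages or for the difference between the ages. edgeR called 0% of all genes in each of these contrasts, with 892 (7.33%), 803 (6.60%), 890 (7.31%) and 844 (6.94%) genes under an unadjusted p of 0.05. DESeq2 called 12, 0, 1 and 0 genes, and 0 members in each. The averaged intervals were -0.20 to 0.19 for H2-D1, -0.31 to 0.07 for B2m, -0.43 to 0.25 for Tap1 and -0.25 to 0.38 for Nlrc5. Nlrc5 was at 142, 174, 159, 187 and 157 CPM in young ISRIB monocytes and 300.1, 119, 147, 136 and 109 CPM in old ISRIB monocytes, where library 1 stood far above the rest of its group.

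**Figure D4:**
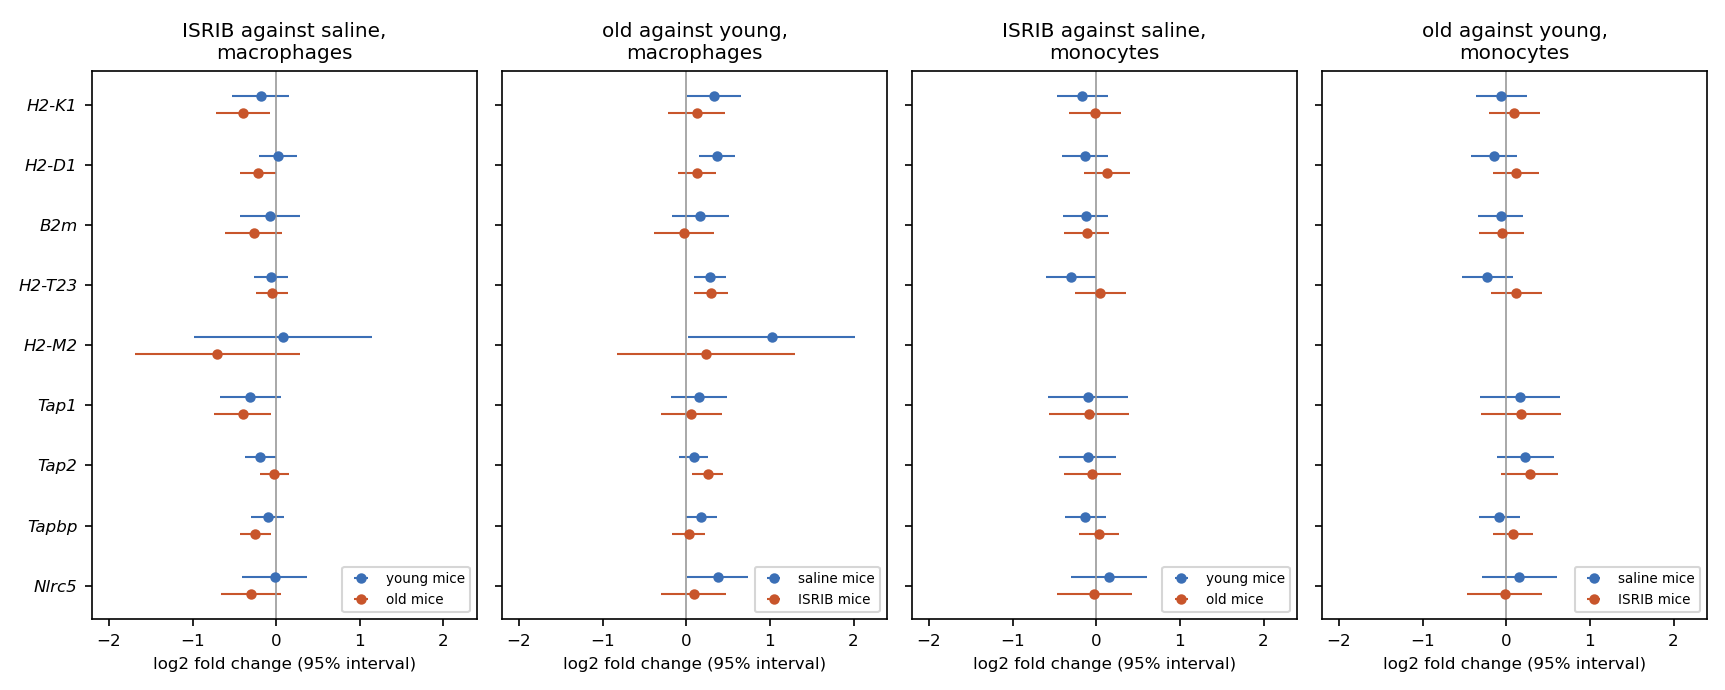
Log2 change of each member with ISRIB, at each age, and with age, under each treatment, in macrophages and monocytes, as points with 95% intervals. All 9 ISRIB estimates in old macrophages are below 0 with 0 called, H2-T23 lies above 0 with age in macrophages under both treatments (0.28 and 0.30), and H2-M2 was not tested in monocytes.

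Age was compared in the same way, as old against young mice. In macrophages, averaged over both treatments, H2-T23 rose 1.22-fold and was the 1 member of 9 called, where 4.82% of all genes were called, 3.07% higher. In saline macrophages it was at 226, 219.5, 205, 173 and 218 CPM in young and 283, 235, 242, 272 and 235 CPM in old mice, which did not overlap. With ISRIB it was at 197, 215, 167 and 219 CPM in young and 239, 220.3, 208, 276 and 282 CPM in old mice, which overlapped. The log2 change was 0.29 (SE 0.07, edgeR adjusted p 0.0103). It passed in all 19 fits without 1 library and in 7 of 8 alternatives, and not in the fit to all 39 libraries (adjusted p 0.0935). All 9 estimates were above 0, with a median of 0.23 against 0.00 over all genes. These 9 signs are not independent, as several members varied together between libraries.

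H2-D1 came next, at 2383, 2826, 2160 and 2634 CPM in young ISRIB and 2572, 2470, 2168, 3315 and 3120 CPM in old ISRIB macrophages, beside the saline values given above. Its averaged change was 0.24 (edgeR adjusted p 0.0645), which passed with DESeq2 (0.0365), library totals alone (0.0395) and no count filter (0.000266). It also passed without young ISRIB library 2 (0.044), old saline library 2 (0.035) or old ISRIB library 3 (0.0224). Within saline mice 0 of 9 members were called (0.830% of all genes), 5 had an unadjusted p under 0.05 (12.5% of all genes), DESeq2 called 1 member (H2-D1, adjusted p 0.0392) and limma voom called 0. The saline libraries did not overlap for H2-D1 (0.36, edgeR adjusted p 0.101) and H2-T23 (0.28, adjusted p 0.153), both higher in old mice, as for 1.68% of all genes. Without old saline library 2 the saline change of H2-D1 was 0.41 with an adjusted p of 0.0453. Within ISRIB mice 0 of 9 were called (0.789% of all genes) by edgeR, DESeq2 or limma voom, 2 had an unadjusted p under 0.05 (12.0% of all genes), and Tap2 alone did not overlap (0.26, adjusted p 0.208; 2.70% of all genes were higher in this way).

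Averaged over both treatments, 3.07% of all genes were called higher with age in macrophages. Of the other class I heavy chains tested there, 3 of 7 rose: H2-Q7 (0.94, edgeR adjusted p 0.00929), H2-Q6 (0.80, 0.0178) and H2-Q4 (0.39, 0.0438). The H2-Q7 and H2-Q6 calls held in all 19 fits without 1 library, and that of H2-Q4 in 8 of 19. In these genes 26.5%, 35% and 36.4% of 50-base stretches occur in another gene, so reads may move between them. The interferon-stimulated and immunoproteasome lists had 0 called genes, with medians of -0.00 and 0.04. Markers of other cells were compared between old and young macrophages by two-sided exact permutation tests on summed CPM, adjusted over 12 tests. The B cell list averaged 154 CPM in old against 13.5 CPM in young saline macrophages (exact p 0.0159, adjusted 0.0212) and 283 against 16.6 CPM with ISRIB, and 6 of its 7 genes rose. Its range was 6.53 to 29 CPM in young and 21.3 to 393 CPM in old saline macrophages, and 9.48 to 23.6 CPM and 146 to 561 CPM with ISRIB. The plasma cell list averaged 9.05 against 0.819 CPM in saline mice, and the T and NK cell list 9.47 against 2.21 CPM. The dendritic cell list averaged 20.03 against 12.1 CPM and the endothelial list 11.2 against 3.503 CPM, and these 4 saline differences each had an exact p of 0.00794 (adjusted 0.0212). With ISRIB the endothelial list, at 7.87 against 4.82 CPM, did not pass (exact p 0.159, adjusted 0.191), nor did the neutrophil list with saline (109 against 96.02 CPM, adjusted exact p 0.251) or ISRIB (adjusted 0.603). Myeloid markers moved as well: averaged over treatments, 3 of 10 alveolar macrophage markers rose, Marco (2.25), Siglecf (0.75) and Fabp4 (0.67). Of 6 classical monocyte markers 2 rose and Ccr2 fell (-1.27), of 6 nonclassical ones 2 rose and Ace fell (-0.89), and of 8 markers of monocyte-derived macrophages Cx3cr1 fell (-0.87) and 0 rose. The part of these lists in the H2-T23 and H2-Q changes was not tested.

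In monocytes age gave 0 called members of 8 in saline mice (0.0164% of all genes), with ISRIB (0% of all genes by edgeR, 765 genes or 6.29% under an unadjusted p of 0.05) and averaged (0.115%). DESeq2 called 41, 14 and 73 genes in these contrasts and 0 members, and limma voom called 0 members. The averaged change with age in monocytes was -0.05 for H2-T23 (95% interval -0.27 to 0.16) and 0.25 for Tap2 (0.01 to 0.50, edgeR adjusted p 0.582), the 1 member with an unadjusted p under 0.05, against 8.08% of all genes.

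Whether the members varied together from library to library was examined within each cell type, on log2(CPM + 0.5) after removing group means. Each of 9648 genes in macrophages and 9126 in monocytes, with a mean of at least 5 CPM, was compared with H2-K1 and with Nlrc5, and p came from 100000 permutations within groups, two-sided and adjusted over all these genes. In the 19 macrophage libraries B2m followed H2-K1 closely, with r = 0.919 and rho = 0.919 (permutation p 2e-05, adjusted 0.0193; for rho 7e-05, adjusted 0.0551), rank 3 of all genes. H2-M2 had r = 0.872, at the smallest p the permutations can give (1e-05, adjusted 0.0193). H2-D1 had 0.869 and Tapbp 0.828 (permutation p adjusted 0.0497 each). For rho, H2-M2, H2-D1 and Tapbp did not pass (permutation p adjusted 0.0643, 0.0551 and 0.0928). H2-T23 (0.809), Tap1 (0.713) and Nlrc5 (0.686) did not pass, and Tap2 was at -0.014. In all 0.342% of genes passed. Without old saline library 4 and old ISRIB library 4, r with B2m was 0.862 (permutation p adjusted 0.193), and 0 of the members passed.

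In the 20 monocyte libraries H2-D1 was the gene most like H2-K1, with r = 0.962 and rho = 0.937 (permutation p 2e-05, adjusted 0.0203; for rho adjusted 0.0228). B2m followed with r = 0.888 (adjusted 0.0406) and rho = 0.678, which did not pass (adjusted 0.123). Tap1 had r = 0.592 (adjusted 0.0203) and rho = 0.817 (adjusted 0.0438), where 0.460% of all genes passed by permutation. Without young saline libraries 4 and 5, r was 0.885 with H2-D1, 0.724 with B2m and 0.664 with Tap1. The permutation p of each, adjusted over all genes, no longer passed (0.103, 0.28 and 0.147). Library 4 had the fewest counts of all libraries (4595331), with 12324 genes detected. Library 5 was the lowest of its group for 18 of 24 interferon-stimulated genes, with a median of 0.592 times the rest of the group. The part of these traits in the likeness was not tested. The 5 genes most like H2-K1 were H2-D1, H2-Q4, Gngt2, Bbc3 and Dusp2 in monocytes (r 0.962 to 0.904) and Nrp2, Mmp14, B2m, Adam17 and Lgals3bp in macrophages (r 0.927 to 0.905).

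For Nlrc5 0 members and 0% of all genes passed the permutation test in either cell type. In macrophages the highest member was B2m with r = 0.789 and rho = 0.681 (permutation p 0.00219, adjusted 0.23), then Tap1 (0.701), H2-K1 (0.686) and Tapbp (0.667). Tap2 was at -0.216. In monocytes Tap1 had r = 0.743, Tapbp 0.723 and Tap2 0.716, but without old ISRIB library 1 and young saline library 5 these were 0.047, -0.106 and -0.048, so the relation rests on those libraries. The 5 genes most like Nlrc5 were Col4a3bp, Nampt, Irgm1, Fam198b and Oasl2 in macrophages (r 0.847 to 0.807) and Tgtp2, Samhd1, Parp14, Nod1 and Trafd1 in monocytes (r 0.919 to 0.810).

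**Figure D5:**
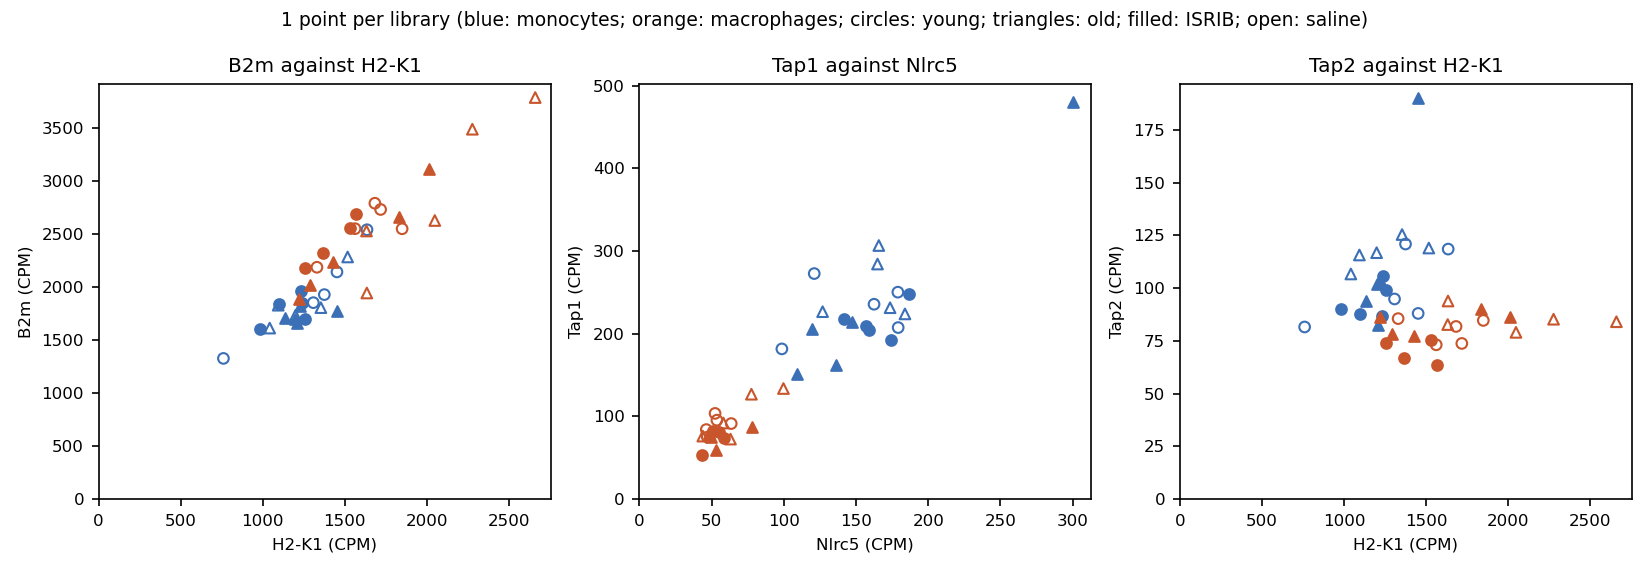
CPM of B2m against H2-K1, Tap1 against Nlrc5 and Tap2 against H2-K1, 1 point per library, before group means were removed (19 macrophage libraries in orange, 20 monocyte libraries in blue; triangles old, filled ISRIB). B2m is higher in libraries with more H2-K1 in both cell types, and old ISRIB monocyte library 1 lies apart at 300.1 CPM of Nlrc5 and 480.0 CPM of Tap1.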

How the data were processed

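RNA was sequenced from 39 libraries, prepared from 3 ng of total RNA with polyA selection per the labels. The deposited table holds counts that the authors made for each Ensembl gene, unscaled whole numbers, per the file headers. The submitters' processing notes name bcl2fastq 2.19.1, FastQC, Trimmomatic 0.36, STAR 2.6.0, HTSeq 0.11.2 and build mm10; the annotation is not given in the sources used here, nor is the strand setting. Symbols and positions (GRCm38) were matched for 42546 of 43430 genes. CPM were counts divided by the library total times its TMM factor. The factor was left out for sums over marker lists and for H2-M2 counts pooled over libraries.

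Differences were tested in R 4.3.3 with edgeR 4.0.16 (quasi-likelihood test, TMM, filterByExpr with a minimum count of 10 and a minimum total of 15, robust) and Benjamini-Hochberg adjustment over all genes tested: 12171 in the 19 macrophage libraries, 12170 in the 20 monocyte libraries and 13587 in all 39. A gene was called at an adjusted p under 0.05. The scripts were checked on simulated data. Alternatives were DESeq2 1.42.0, limma 3.58.1 voom, other scalings, no filter, other sample sets, a replicate block and each library left out. The 9 members and all lists (181 of 184 symbols matched) were chosen with earlier results of these data known. The text names every member, up to 5 called genes a list by size, and the 5 genes most like H2-K1 and Nlrc5; where fewer or others of a list are named, they were chosen after their values were seen. Over 76 pairs within groups, the chi-square per degree of freedom was 7.04 to 52.8, so 0 libraries were duplicates. The labels only number replicates, so p-values measure the spread between these samples, which may be technical. Whether the replicate numbers pair the samples is not labelled, and the main fits did not use them.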

Additional observations from a re-analysis of the deposited data

Results flagged for a closer look

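Of 69 sets of values (1 gene in 1 group of 4 or 5 libraries), 7 held a library far from the others of its group. The rule flags about 1 in 20 independent sets by chance, but these sets share libraries, so the 7 cannot be set against that rate. Of these, 5 were the same library, replicate 1 of old ISRIB monocytes: it had 1451 CPM of H2-K1 (others 1137 to 1227), 462.0 CPM of H2-T23 (261 to 307), 480.0 CPM of Tap1 (151 to 214), 190.2 CPM of Tap2 (82.5 to 103) and 300.1 CPM of Nlrc5 (109 to 147). This library was also the highest of its group for 16 of 24 interferon-stimulated genes, with a median of 2.34 times the rest of the group, and for 7 of 8 members.

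Replicate 4 of old ISRIB macrophages had 78.1 CPM of Nlrc5 (others 48.3 to 53.0), and was the highest of its group for 20 of 24 interferon-stimulated genes, with a median ratio of 1.77, and for 7 of 9 members. Replicate 2 of old saline monocytes had 0.0934 CPM of H2-M2, from 1 count, where the others had 0. The rule always flags a lone value above 0. The part of the interferon-stimulated genes in these values was not tested.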

How the results depend on the processing

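Of 144 counts of called members under the fixed alternatives, 136 kept within 1.5 times the main count, as did 249 of 255 with 1 library left out. Of the single members' fold changes, 1227 of 1240 and 2182 of 2195 kept their side of the threshold. The sign changed in 22 and 90 of them, over 37 estimates with main values of -0.26 to 0.24, and 0 of these were called under either setting; H2-M2 for ISRIB in young macrophages (0.08) and Tapbp between the cell types (0.02) were among them. For age in macrophages averaged over treatments (1 member called), DESeq2, library totals and no count filter gave 2, the fit to all 39 libraries gave 0, and leaving out 1 library gave 1 to 2. For age in saline macrophages (0), DESeq2 and no filter gave 1, and leaving out 1 library gave 0 to 1. For ISRIB in macrophages averaged over ages (0), no filter gave 1, and leaving out 1 library gave 0 to 1; for ISRIB in old macrophages (0), no filter gave 1. The interaction of cell type and age (0) gave 0 to 1 with 1 library left out. The cause of these changes was not tested.

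Counts over all genes moved more. For ISRIB in macrophages averaged over ages, 141 genes were called, 81 higher; DESeq2 called 434, no filter 615, the replicate block 296, library totals 57 (27 higher), the fit to all 39 libraries 17, and leaving out 1 library gave 12 to 642. In young macrophages 2 genes were called; DESeq2 called 119, no filter 209 and the block 64, and leaving out 1 library gave 0 to 327. In old macrophages no filter called 123. For age in saline macrophages 101 genes were called, 78 higher; DESeq2 called 264, no filter 381, library totals 106 (63 higher) and all 39 libraries 46, and leaving out 1 library gave 19 to 213. For age averaged over treatments (587), no filter called 986 and all 39 libraries 327. For age with ISRIB (96) the count was 35 to 345 over all these settings, and for the interaction of cell type and age (26) it was 4 to 150.

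With the replicate number as a block, 8 members were called between the cell types, 7 in young and 7 in old saline mice (H2-M2 in each), and 1 with age in macrophages; the one changed call was H2-K1 in young saline mice (0.34, edgeR adjusted p 0.0484). Over all genes, deviations of same-numbered libraries had a median r of 0.004 over 27 macrophage pairs (-0.148 to 0.165). It was -0.014 over 30 monocyte pairs (-0.191 to 0.242). Pairs of unlike number had medians of 0.001 and -0.001. A pairing that touches few genes would not show in this r, so whether the numbers pair the samples cannot be told from it. The block called 296 genes against 141 for ISRIB in macrophages averaged over ages. It called fewer for age averaged over treatments, 479 against 587. Depth limits H2-M2 in monocytes, where 1 count over the 20 libraries allows up to 0.0321 CPM (exact 95% Poisson interval).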

Other observations

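Class I-like molecules, which share the class I fold but present lipids, vitamin metabolites or no antigen, also differed between the saline cell types, in a contrast where 35.8% of all genes were higher and 34.1% lower. Of 6 tested, 4 were higher in macrophages: Ulbp1 (log2 difference 3.78), an NKG2D ligand; Mr1 (3.14), which presents vitamin B metabolites; Cd1d1 (2.25), which presents lipids; and Fcgrt (1.74), the neonatal Fc receptor. Hfe, a regulator of iron uptake, was lower (-0.46). Each was called by edgeR's quasi-likelihood test, and 4 to 5 were higher over the alternatives. 0 of the 6 were called with ISRIB or age in macrophages averaged over the other factor.

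Of the other class I heavy chains, 8 were tested in this contrast: H2-Q6 (0.80) and H2-M3 (0.51) were higher in macrophages, and H2-T24 (-2.197) and H2-Q10 (-2.78) were lower. The count of lower genes was 1 to 4 over the alternatives and 2 to 5 with 1 library left out. In the fit to macrophages alone, 7 of the 8 heavy chains were tested. The remaining gene passed the count filter here through the monocyte libraries. The count of lower genes may therefore hold a call that the filter fixed. The 3 class I receptor genes with a row were lower in macrophages. They were Pirb (-1.02), an inhibitory receptor of myeloid cells, and Klrd1 (-3.36) and Cd8a (-3.71), which are genes of T and NK cells. In the fit to macrophages alone, 2 of the 3 were tested. The remaining gene passed the count filter here through the monocyte libraries, which fixed its lower call. The T and NK cell list was 7.49 to 95.9 CPM in monocytes and 1.29 to 23.6 CPM in macrophages. Its part in the Klrd1 and Cd8a values was not tested.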
